A study of Mus musculus with 16 samples.

Results

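The activator protein 1 (AP-1) factor genes Fos, Fosb, Fosl2, Jun, Junb and Jund, together with Atf3, were followed through sorted cells of the mouse olfactory mucosa. These 7 genes were taken by name from the array's gene annotation, out of 19505 genes measured, and each was read by 1 probe set. All of them were present, so none was lost to a filter on low values. Expression was measured on 16 Affymetrix arrays, as log2-scale values deposited by the authors, for cells of C57BL/6 mice carrying the S100a5-tauGFP reporter, in which a green fluorescent protein (GFP) is tied to S100a5. The 24 mice, of both sexes and 7 to 12 weeks old, sat singly in chambers of clean air for 40 h. From 26 h on they received 10 s pulses every 20 min, either of isoamyl acetate mixed with whiskey lactone (odor) or of filtered air (vehicle). The mucosa was dissected, dissociated and sorted by fluorescence in 8 pools of 3 mice, 4 pools per treatment. Each pool gave 2 libraries, so the 4 groups of 4 libraries were odor titled GFP+, odor titled GFP-, vehicle titled GFP+ and vehicle titled GFP-. All groups carried the reporter and went through the same dissociation and sort, and no unsorted or undissociated tissue was analysed here.

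The sample titles and the cell type tags named opposite fractions in all 16 samples. Groups here follow the titles. Under the tags, each fraction difference would have the opposite sign, and what is given for odor against vehicle in one fraction would belong to the other. S100a5, which encodes a protein that binds calcium and whose transcript in olfactory neurons is raised by their activity, did not follow the titles. In odor, its mean was 15.27 ± 0.24 on the log2 scale in libraries titled GFP+ and 16.43 ± 0.27 in those titled GFP- (SD, n = 4 each). Vehicle pool 3 ran opposite to the other pools, with S100a5 at 16.37 in its library titled GFP+ and 14.99 in its library titled GFP-. Results are therefore given for all 16 arrays and for the 14 arrays without that pool, a choice made after its values had been seen. Omp, the marker of mature olfactory neurons, averaged 18.55 over the 16 arrays and was above the median of the negative control probe sets (5.46) on each of them. Krt5, which marks horizontal basal cells, lay below that median on all 16 arrays, and the endothelial marker Pecam1 on 15. In sorted pools, fewer cells of a type and less RNA per cell cannot be told apart.

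AP-1 is a family of dimers built from proteins of the basic leucine zipper class. Fos proteins bind DNA mainly as dimers with a Jun partner, whereas Jun proteins can pair among themselves. Fos, Fosb and Junb are textbook immediate early genes, transcribed within minutes of a stimulus in neurons and in many other cells, while Jund is expressed more steadily. Atf3 belongs to a related branch, binds Jun proteins and is induced by injury and stress, including in damaged sensory neurons. Enzymatic dissociation of tissue is itself known to induce Fos, Jun and Atf3 transcripts.

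Short DNA elements before the start sites are part of how these genes are induced, and 5 of the 7 regions upstream are shown because they hold the letters that were searched. The RefSeq promoter table (mouse build GRCm38.p6) held 1 window for each of the 7 genes, and the 250 bases before the start were searched on both strands. Capitals mark TGACG, the core of a cyclic AMP response element, TGACNTCA, an element of the Jun promoter bound by Jun and ATF proteins, and the TATA letters TATAAA. Fos lies on chr12 and its window is chr12:85473640-85473889 (plus strand). The Jun window is chr4:95052223-95052472 and the Atf3 window chr1:191183334-191183583 (minus strand for both). For Fosb and Junb only the bases around the match are given, at chr7:19310091-19310115 and chr8:84978840-84978864 (minus strand for both). The start site of the Fosb window lies inside the gene span of the RefSeq table, whose upstream end is at 19310118. The Fosb bases printed here, with their match, therefore lie within that span and are upstream only of the window's start.
Fos: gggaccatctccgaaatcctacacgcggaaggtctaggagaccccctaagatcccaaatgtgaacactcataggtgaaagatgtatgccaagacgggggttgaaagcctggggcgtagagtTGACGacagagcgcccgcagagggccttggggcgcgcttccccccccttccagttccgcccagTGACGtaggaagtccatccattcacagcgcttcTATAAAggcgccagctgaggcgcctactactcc
Jun: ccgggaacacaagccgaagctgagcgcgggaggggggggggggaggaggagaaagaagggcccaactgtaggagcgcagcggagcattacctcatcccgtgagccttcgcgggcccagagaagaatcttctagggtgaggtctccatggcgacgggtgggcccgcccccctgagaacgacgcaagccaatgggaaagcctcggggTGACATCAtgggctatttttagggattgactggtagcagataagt
Atf3: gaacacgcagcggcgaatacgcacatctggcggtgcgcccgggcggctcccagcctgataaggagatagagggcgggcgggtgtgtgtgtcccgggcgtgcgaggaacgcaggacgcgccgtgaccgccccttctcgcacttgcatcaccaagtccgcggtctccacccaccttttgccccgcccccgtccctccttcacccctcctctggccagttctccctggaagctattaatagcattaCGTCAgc
Fosb: gagttgcgggTGACGcaagcgcggg
Junb: ttcctgacagTGACGcgagccgcct
TGACG was found in 4 of the 7 windows, against 17.8% of 32851 windows in the table. In Fos it stood 129 to 125 and 66 to 62 bases before the start, in Fosb 60 to 56 and in Junb 106 to 102. In Atf3 it lay on the opposite strand, 7 to 3 bases before the start, and appears there as CGTCA. TGACNTCA was found in Jun alone, as TGACATCA 45 to 38 bases before the start, against 7.49% of all windows. TATAAA was found in Fos alone, 33 to 28 bases before the start, against 12.4% of windows. The AP-1 letters TGANTCA (6.75% of windows) and the CArG box of serum response factor (1.47%) had no match in any of the 7. Fosl2 and Jund matched none of the searched letters. A match is a description of these letters, and a missing match says only that the letters were not in this window.

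The first comparison asked how the genes differed between the sorted fractions of the same pools. Fos, Fosb, Fosl2, Junb and Atf3 were higher in the fraction titled GFP+, by 1.48 to 4.30 on the log2 scale in odor mice. Jun differed by less, and Jund, the steadily expressed member of the Jun family, was at nearly the same level in both fractions. S100a5 differed in the opposite direction, by -1.16 in odor (limma adjusted p = 0.0625 over 16 arrays and 0.000588 over the 14). No difference is turned into a fold here: the deposited values reached 19.4, whereas the log2 scale of a 16-bit scanner ends at 16, so how the range was widened is unknown.

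**Figure D1:**
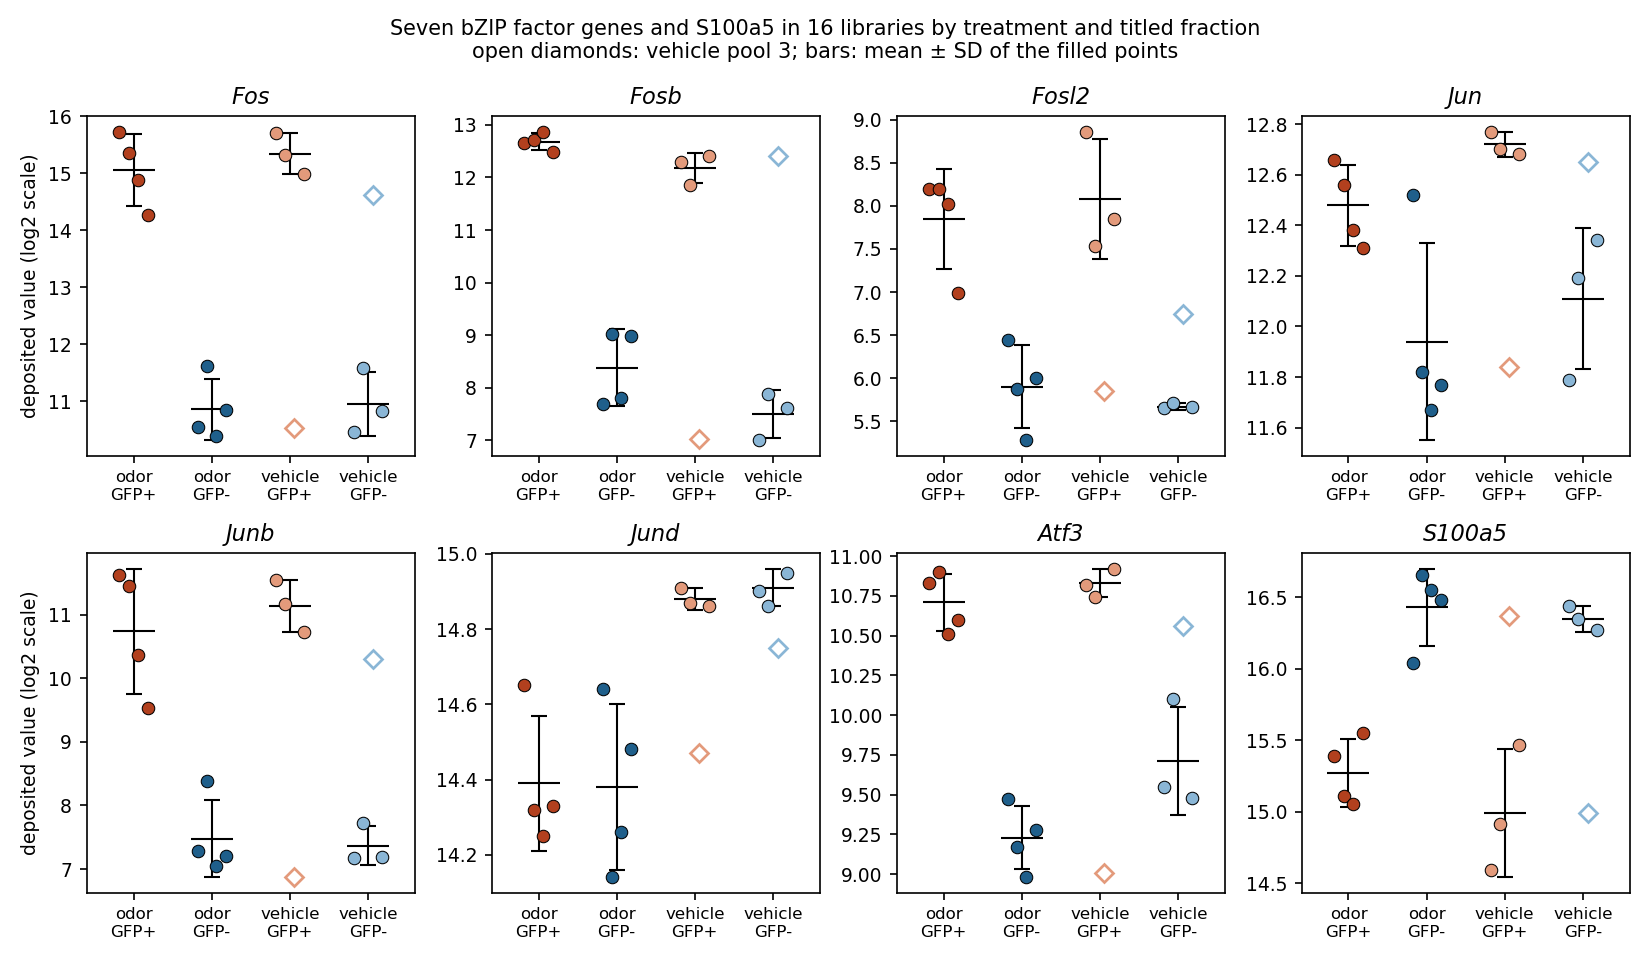
Deposited values (log2 scale, vertical axis) of the 7 genes and of S100a5 in each of 16 libraries, by treatment and titled fraction; points are libraries, open diamonds are the 2 libraries of vehicle pool 3, and bars are the mean ± SD of the filled points. Fos, Fosb, Fosl2, Junb and Atf3 stood apart between the fractions and the diamonds lay toward the opposite fraction, whereas Jund lay between 14.14 and 14.95 in all libraries.

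Fos, widely used as a marker of recent neuronal activity, read 15.73, 15.36, 14.89 and 14.27 in odor libraries 1 to 4 titled GFP+, against 10.56, 11.63, 10.40 and 10.85 in the other fraction. In vehicle Fos read 15.70, 15.32, 10.54 and 14.98 titled GFP+, against 10.47, 11.58, 14.62 and 10.83 titled GFP-. Every odor library titled GFP+ lay above every odor library titled GFP-, and in vehicle only the libraries of pool 3 broke that order. The odor difference was 4.20 ± 1.00 (limma SE) with an adjusted p of 0.0305 over 16 arrays, and 4.20 ± 0.33 with an adjusted p of 3.12e-07 over the 14 arrays. Adjusted p here is limma's two-sided p after Benjamini-Hochberg adjustment over all 19505 genes, and a gene was called at 0.05. The vehicle difference was 2.26 ± 1.00 (adjusted p = 0.495) over 16 arrays and 4.38 ± 0.39 (adjusted p = 1.35e-06) without pool 3.

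Fosb, a close relative of Fos with a stable splice form in neurons, read 12.66, 12.71, 12.87 and 12.48 in odor libraries titled GFP+, against 7.69, 9.02, 7.80 and 8.99 in those titled GFP-. The vehicle libraries titled GFP+ read 12.30, 11.86, 7.02 and 12.40, against 7.00, 7.88, 12.40 and 7.62 in the vehicle libraries titled GFP-. The odor fractions did not overlap, and outside pool 3 the vehicle fractions did not either. In odor the difference was 4.30 ± 1.15 (adjusted p = 0.0389) over 16 arrays and 4.30 ± 0.29 (adjusted p = 5.85e-08) over the 14. In vehicle it was 2.17 ± 1.15 (adjusted p = 0.56) over 16 arrays and 4.68 ± 0.34 (adjusted p = 1.86e-07) without pool 3. The probe set reads the gene as a whole, and splice forms were not separated.

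Fosl2, which encodes Fra-2, a Fos-family protein without the strong activating domain of Fos, gave dim values. It lay above the 95th percentile of the negative control probe sets (9.79) on 0 of 16 arrays and below their median on 1. It read 8.19, 8.20, 8.02 and 6.99 in odor libraries titled GFP+, against 6.44, 5.88, 5.28 and 6.00 in those titled GFP-. In vehicle Fosl2 read 8.86, 7.53, 5.85 and 7.85 titled GFP+, against 5.65, 5.71, 6.74 and 5.66 titled GFP-. The odor groups did not overlap, with library 4 titled GFP+ lowest in its group. The odor difference was 1.95 ± 0.50 (adjusted p = 0.0336) over 16 arrays and 1.95 ± 0.32 (adjusted p = 0.00043) over the 14. In vehicle the difference was 1.58 ± 0.50 (adjusted p = 0.478), and 2.41 ± 0.37 (adjusted p = 0.000268) without pool 3.

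Junb, an inducible Jun-family protein and the weaker activator beside Jun, read 11.63, 11.45, 10.36 and 9.53 in odor libraries titled GFP+, against 7.28, 8.39, 7.05 and 7.20 in those titled GFP-. In vehicle Junb read 11.54, 11.16, 6.88 and 10.72 titled GFP+, against 7.18, 7.72, 10.30 and 7.19 titled GFP-. The odor libraries did not overlap, and odor library 4 was the lowest titled GFP+ for Fos, Fosb, Fosl2, Jun and Junb. The odor difference was 3.26 ± 0.91 (adjusted p = 0.0438) over 16 arrays and 3.26 ± 0.41 (adjusted p = 3.34e-05) over the 14. The vehicle difference was 1.97 ± 0.91 (adjusted p = 0.501) and, without pool 3, 3.77 ± 0.47 (adjusted p = 3.86e-05).

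Jun, the partner shared by all Fos proteins, read 12.66, 12.56, 12.38 and 12.31 in odor libraries titled GFP+, against 12.52, 11.82, 11.67 and 11.77 in those titled GFP-. In vehicle Jun read 12.77, 12.70, 11.84 and 12.68 titled GFP+, against 11.79, 12.19, 12.65 and 12.34 titled GFP-. Odor library 1 titled GFP- overlapped the other fraction, and the vehicle fractions stood apart once pool 3 was left out. The odor difference of 0.53 was not called, at an adjusted p of 0.207 over 16 arrays and 0.0793 over the 14, nor was the vehicle difference of 0.61 over the 14 arrays (adjusted p = 0.0904). Of 17 fits made on those arrays, as given, with other settings or with a library left out, Jun was called in 1, the fit without odor library 1 titled GFP- (adjusted p = 0.00529 in odor and 0.0241 in vehicle).

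Jund read 14.65, 14.32, 14.25 and 14.33 in odor libraries titled GFP+, against 14.64, 14.14, 14.26 and 14.48 in the other fraction. In vehicle Jund read 14.91, 14.87, 14.47 and 14.86 titled GFP+, against 14.90, 14.86, 14.75 and 14.95 titled GFP-. The fractions overlapped in both treatments. The odor difference was 0.01 with a 95% interval of -0.29 to 0.31 over the 14 arrays (limma adjusted p = 0.983), and the vehicle difference was -0.02 with an interval of -0.37 to 0.32 (adjusted p = 0.954).

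Atf3 read 10.83, 10.90, 10.51 and 10.60 in odor libraries titled GFP+, against 9.47, 9.17, 8.98 and 9.28 in the other fraction. In vehicle Atf3 read 10.82, 10.74, 9.01 and 10.92 titled GFP+, against 9.55, 10.10, 10.56 and 9.48 titled GFP-. The odor libraries titled GFP+ and the 3 vehicle libraries of that title outside pool 3 spanned 10.51 to 10.92, and each lay above every library titled GFP- except that of vehicle pool 3. The odor difference was 1.48 ± 0.35 (adjusted p = 0.0296) over 16 arrays and 1.48 ± 0.16 (adjusted p = 9.68e-06) over the 14. The vehicle difference was 0.45 ± 0.35 (adjusted p = 0.711) and, without pool 3, 1.12 ± 0.19 (adjusted p = 0.00071).

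The lower side of several of these differences was dim. In odor libraries titled GFP-, Fosb (at most 9.02), Junb (at most 8.39) and Atf3 (at most 9.47) lay under the 95th percentile of the negative control probe sets, 9.79, in every library. Over the 16 arrays Fosb lay above that percentile on 8, Junb on 7 and Atf3 on 9, whereas Fos, Jun and Jund lay above it on all 16. In odor the differences for Fosb, Junb and Atf3 therefore have a lower side within the range of negative controls. On the upper side, Junb in odor library 4 titled GFP+ (9.53) lay under 9.79 as well. For Fosl2 (at most 8.86) both sides lay under it. In vehicle libraries titled GFP- outside pool 3, Fosb (at most 7.88) and Junb (at most 7.72) lay under it, whereas Atf3 reached 10.10.

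In odor mice limma thus called 5 of the 7 genes, all higher in the fraction titled GFP+, both over 16 arrays, where it called 6.97% of all genes, and over the 14 arrays, where it called 13.2%. The share of all genes called as higher was 4.57% over 16 arrays and 8.59% over 14, and that called as lower was 2.39% and 4.59%. The median difference of the 7 genes was 1.95, against -0.08 for all genes. The odor groups did not overlap for the same 5 genes, against 16.5% of all genes. In vehicle mice limma called 0 of the 7 genes and 0% of all genes over 16 arrays, with 3 of the 7 at an unadjusted p under 0.05, against 9.8% of all genes. Over the 14 arrays it called 5 of them, all higher, against 11.2% of all genes (7.86% higher and 3.32% lower), and their median difference was 2.41, against -0.10 for all genes. Without pool 3 the vehicle groups did not overlap for 6 of the 7 genes, against 27.6% of all genes. Libraries of one pool share mice, so pool was also fitted as a block. Over 16 arrays 0 of the 7 were then called in odor (limma adjusted p from 0.161 to 0.978), against 0.0103% of all genes. Over the 14 arrays the block fit called the same 5 in each treatment, against 13.6% of all genes in odor and 11.9% in vehicle. All of these calls in vehicle, and their size, rest on leaving out pool 3.

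**Figure D2:**
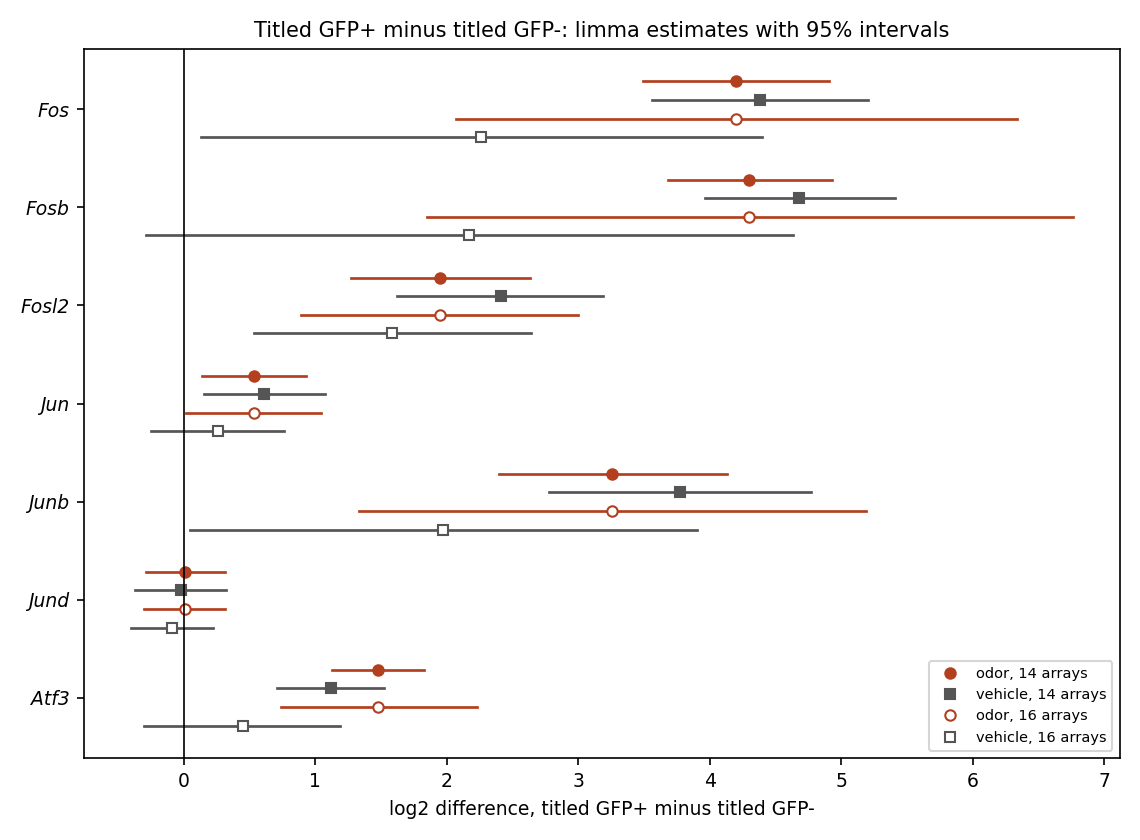
Limma estimates of titled GFP+ minus titled GFP- (log2 difference, horizontal axis) with 95% intervals for each gene; circles are odor and squares vehicle, filled for the 14 arrays without vehicle pool 3 and open for all 16 arrays. Jund lay at 0.01 in odor and -0.02 in vehicle over the 14 arrays, and the intervals over 16 arrays were wider than those over the 14 for every gene but Jund.

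Within pools the differences were taken between libraries of the same mice. Fos was higher in the library titled GFP+ in 7 of 8 pools, by 3.42 to 5.23 with a median of 4.16, and was lower by 4.09 in vehicle pool 3. Fosb was higher by 3.49 to 5.30 in the same 7 pools, and pool 3 gave -5.38. The other called genes had the same order, with medians over the 7 pools of 3.43 for Junb, 2.19 for Fosl2 and 1.36 for Atf3. Vehicle pool 3 gave -3.43, -0.89 and -1.55 for these 3 genes. Jun was also higher in 7 of 8 pools, by 0.14 to 0.98, and was at -0.82 in pool 3. Jund was higher in 4 pools and lower in 4, between -0.28 and 0.19.

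**Figure D3:**
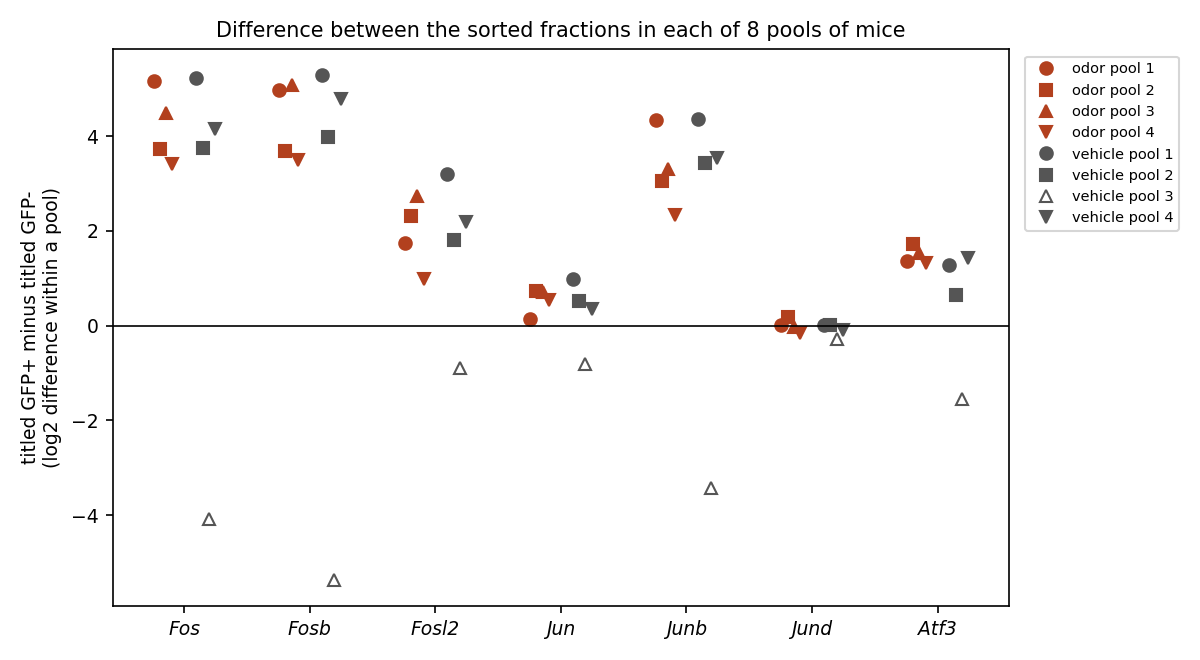
Difference between the library titled GFP+ and the library titled GFP- within each of 8 pools of mice (log2 difference, vertical axis), for each gene; symbols mark pool numbers, odor pools are red and vehicle pools grey, with vehicle pool 3 open. For Fos, Fosb, Fosl2, Jun, Junb and Atf3 the open symbol alone lay below 0.

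The second comparison asked whether the genes responded to the odor within a titled fraction. None of the 7 was called in either fraction, over 16 arrays or over the 14. In the fraction titled GFP+ limma called 0% of all genes over 16 arrays and 0.0359% over the 14 (0.0308% higher), and Jund alone of the 7 had an unadjusted p under 0.05 in both, against 4.66% and 7.78% of all genes. In the fraction titled GFP- it called 0.0103% of all genes over 16 arrays and 0.0256% over the 14 (0.0205% higher). There Jund had an unadjusted p under 0.05 over 16 arrays, and Fosb, Jund and Atf3 had one over the 14, against 6.36% and 7.55% of all genes. Fos differed between odor and vehicle by -0.27 (95% interval -1.04 to 0.50) in the fraction titled GFP+ and by -0.10 (-0.87 to 0.67) in that titled GFP-, over the 14 arrays. Junb differed by -0.40 (-1.33 to 0.53) in the fraction titled GFP+. Over all 16 arrays Fos differed by 0.93 titled GFP+ and by -1.01 titled GFP-, and Junb by 0.67 titled GFP+, so the sign in the fraction titled GFP+ turned with vehicle pool 3 for both. All these intervals include 0, which does not show that the treatments were alike.

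Fosb was the one gene of the 7 with a positive estimate in both fractions over the 14 arrays, and neither passed the test. In the fraction titled GFP+ the odor libraries spanned 12.48 to 12.87 and the vehicle libraries without pool 3 spanned 11.86 to 12.40, a difference of 0.50 ± 0.32 (limma SE, adjusted p = 0.789). In the fraction titled GFP- the means were 8.38 ± 0.73 in odor (SD, n = 4) and 7.50 ± 0.46 in vehicle (SD, n = 3). That difference was 0.88 ± 0.32 with an adjusted p of 0.501, and both means lay under 9.79, the 95th percentile of the negative controls. Over all 16 arrays the 2 differences were 1.79 and -0.35, so the second changed sign with vehicle pool 3.

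Jund, like Fos, Jun and Atf3, had a negative estimate in both fractions over the 14 arrays, which did not pass the test after adjustment. In the fraction titled GFP+ its mean was 14.39 ± 0.18 in odor (SD, n = 4) and 14.88 ± 0.03 in vehicle (SD, n = 3), a difference of -0.49 ± 0.15 (adjusted p = 0.39). In the fraction titled GFP- it was 14.38 ± 0.22 in odor and 14.91 ± 0.05 in vehicle, a difference of -0.53 ± 0.15 (adjusted p = 0.36). Every odor library of either title lay below every vehicle library of the same title once pool 3 was left out. Atf3 had an estimate of -0.48 ± 0.18 in the fraction titled GFP- (adjusted p = 0.505), with its odor libraries between 8.98 and 9.47 and vehicle libraries between 9.48 and 10.10 without pool 3. Groups of these sizes did not overlap for 8.1% of all genes in that fraction, and for 7.72% in the fraction titled GFP+, where Fosb, Jun and Jund did not overlap.

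The mean of a pool's 2 libraries does not depend on which of them is called GFP+, so it was compared as well, a comparison added after the values had been seen. Fosb averaged 10.18, 10.87, 10.33 and 10.73 in odor pools 1 to 4, against 9.65, 9.87, 9.71 and 10.01 in vehicle pools. The odor pools all lay above the vehicle pools, pool 3 included. The difference was 0.72 ± 0.16 (limma SE on 8 pool means, adjusted p = 0.492), the gene with rank 44 by p among 19505. Without vehicle pool 3 it was 0.69, at an adjusted p of 0.304. Jund averaged 14.64, 14.23, 14.26 and 14.40 in odor pools, against 14.91, 14.87, 14.61 and 14.91 in vehicle pools. Odor pool 1 and vehicle pool 3 met in the overlap, and the difference was -0.44 ± 0.13 (adjusted p = 0.547, rank 221), or -0.51 without vehicle pool 3 (adjusted p = 0.301).

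Fos differed by -0.04 over the 8 pools, with means of 12.96 ± 0.44 in odor and 13.01 ± 0.36 in vehicle (SD, n = 4 pools each). Junb differed by 0.02, Fosl2 by 0.14, Jun by -0.16 and Atf3 by -0.18. None of the 7 genes was called, against 0.0103% of all genes, and Fosb and Jund had an unadjusted p under 0.05, against 7.19% of all genes. Pool means did not overlap for 4.37% of all genes over 8 pools, and of the 7 for Fosb only. Without vehicle pool 3 they did not overlap for 9.64% of all genes. Of the 7 genes these were then Fosb, higher in odor, and Jund and Atf3, lower in odor.

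**Figure D4:**
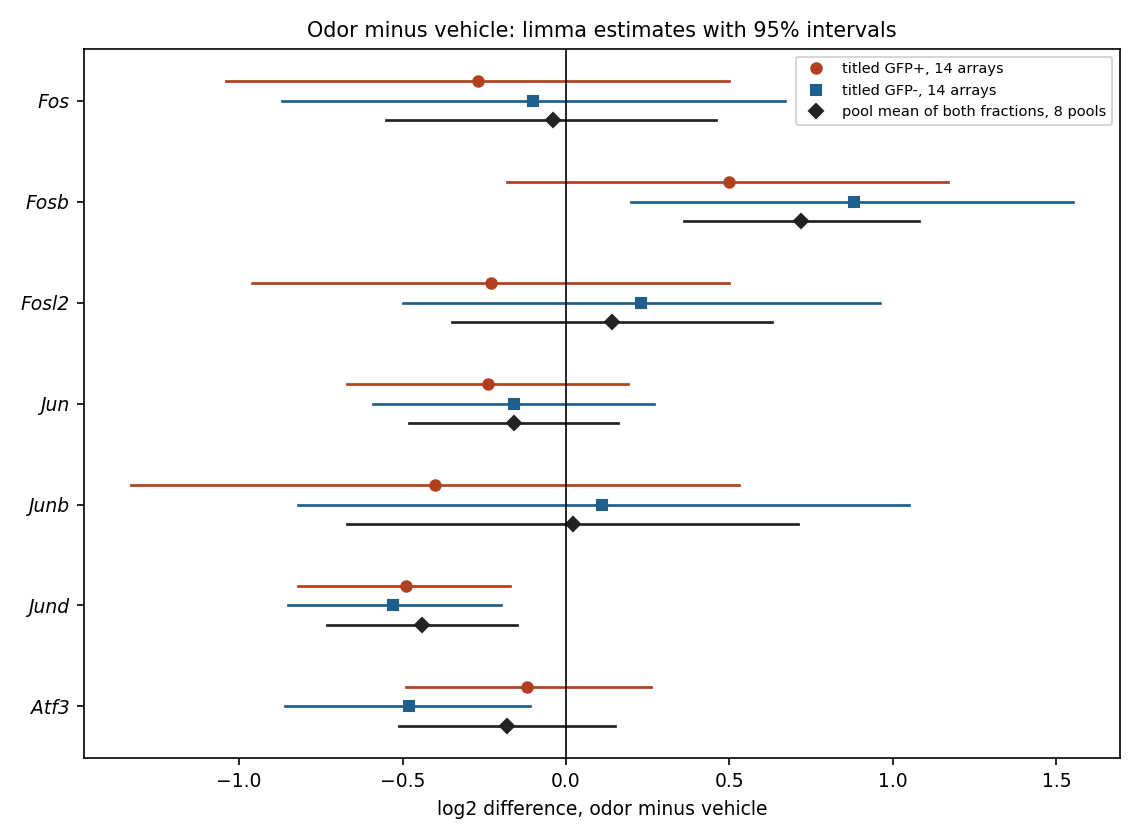
Limma estimates of odor minus vehicle (log2 difference, horizontal axis) with 95% intervals for each gene, in the fraction titled GFP+ (circles) and titled GFP- (squares) over 14 arrays, and for the mean of both fractions over 8 pools (diamonds). Fosb lay above 0 in all 3, and Fos, Jun, Jund and Atf3 lay below 0 in all 3. No estimate was called after adjustment over all genes.

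The third comparison asked whether the fraction difference itself depended on the odor, as the odor difference of titled GFP+ minus titled GFP- less that of vehicle. None of the 7 genes was called, against 0.00513% of all genes over 16 arrays and 0.0103% over the 14. None had an unadjusted p under 0.05, against 2.98% of all genes over 16 arrays and 2.68% over the 14. Over the 14 arrays the estimate was -0.18 (95% interval -1.26 to 0.91) for Fos, -0.38 (-1.34 to 0.58) for Fosb, -0.51 (-1.83 to 0.81) for Junb and 0.37 (-0.17 to 0.90) for Atf3. Over all 16 arrays Fos was at 1.94, Fosb at 2.13, Junb at 1.29 and Atf3 at 1.04. Fosl2 was at 0.37 and Jun at 0.28 over the 16, against -0.46 and -0.08 over the 14, so the sign turned with vehicle pool 3 for Fos, Fosb, Fosl2, Jun and Junb.

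The genes did not share a single profile over the 16 libraries. Likeness was measured as the root mean square difference between 2 profiles, each centred on its own mean. The closest pairs were Jun with Jund (0.36), Jun with Atf3 (0.44) and Fos with Junb (0.45). Fos and Fosb stood at 0.60, whereas Fosb and Junb stood at 0.87. Fosb and Jund, at 2.39, were the farthest apart of all pairs. Outside the 7 genes, Fos was closest to Zfp36 (0.31), Gnai2 (0.38) and Casp8 (0.40), and Fosb to Olfr1039 (0.49), Gng8 (0.54) and Adgrg2 (0.58). Fosl2 was closest to Prkcd, Hsd11b1 and Parvg (0.29 to 0.32), Junb to Aldh2, Muc20 and H2-D1 (0.31 to 0.35), and Atf3 to Dsc2, Cnn3 and Fabp5 (0.23 to 0.24). The measure also carries the size of the change and the shared step between fractions. Jun and Jund varied least of the 7 over the 16 arrays (SD 0.39 and 0.28). Profiles that hardly vary lie near each other by this measure whether or not they move together.

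Other genes around AP-1 were counted in the same fits, from lists chosen with earlier results of these data known. Of 11 measured relatives in the basic leucine zipper class, 1 was called higher and 2 lower in the odor fraction titled GFP+ over the 14 arrays, with a median difference of 0.04. Jdp2, a repressor that pairs with Jun, was higher by 0.73 (limma adjusted p = 0.0364), and Maff, a small Maf protein without an activating domain, was at -0.73 (adjusted p = 0.0102). Batf2, a partner of Jun in immune cells, was at -0.52 (adjusted p = 0.0472, or 0.085 with pool as a block). Fosl1, which encodes Fra-1, was called in vehicle (0.69, adjusted p = 0.0269) and not in odor (0.35, adjusted p = 0.214); the difference between the treatments was not called for any of the 11. Over all 16 arrays Maff alone of the 11 was called in odor.

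Of 11 measured upstream regulators, the kinases and DNA-binding factors that switch these genes on, 0 were called by limma in either treatment over the 14 arrays, with 1 in odor and 2 in vehicle at an unadjusted p under 0.05. Their median difference in odor was 0.03. Mapk14, the p38 kinase, had the smallest p of them in odor, at 0.47 (adjusted p = 0.067, or 0.0366 with pool as a block). Of 11 measured AP-1 target genes, 6 were higher in odor and 6 in vehicle over the 14 arrays, with a median of 1.78 in odor and 2.29 in vehicle. With vehicle pool 3 kept in, 5 were higher in odor and 0 in vehicle. They included Vim, an intermediate filament protein (5.61), Mmp9, a matrix protease of neutrophils and other cells (6.85), Plaur, the urokinase receptor (4.85) and Cd44, a hyaluronan receptor of leukocytes and other cells (3.49, and adjusted p = 0.0665 over 16 arrays). The other 5, among them Timp1 (-0.08), Ccl2 (0.11) and Mmp3 (-0.01), were not called. The mean of this list ran from 4.36 to 4.52 in odor libraries titled GFP-, below the median of the negative controls (5.46). A missing call among these genes therefore does not show that the fractions were alike.

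Of 15 measured genes known to be induced by tissue dissociation, 10 were higher in odor libraries titled GFP+ and 8 in vehicle libraries of that title over the 14 arrays, and 8 in odor and 0 in vehicle over all 16. Zfp36, which destabilises inflammatory mRNAs, was higher by 4.27 (adjusted p = 1.34e-06), Klf4, a zinc finger factor, by 1.96, and Gadd45b, a stress-inducible regulator of kinases, by 1.93. The heat shock genes of that list were not called in odor, with Hspa1a at 0.97 (adjusted p = 0.114), Hspa1b at 0.93 (adjusted p = 0.0618, or 0.0477 with pool as a block) and Dnajb1 at 0.41 (adjusted p = 0.0749). Of 9 measured genes of the integrated stress response, a pathway through Atf4 that can induce Atf3, only Nupr1 was called higher (1.95, adjusted p = 0.000182), while Atf4 was at 0.14 (adjusted p = 0.809) and Ddit3 at 0.17 (adjusted p = 0.658). Of 6 olfactory activity genes, 5 were lower in the fraction titled GFP+ in each treatment over the 14 arrays, such as Pcp4l1 at -1.82 and Lrrc3b at -1.40 in odor. Over all 16 arrays 2 of them were lower in odor and 0 in vehicle, and Lrrc3b was not called (adjusted p = 0.0593). These shares stood against 8.59% of all genes called higher and 4.59% called lower in odor over the 14 arrays.

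Markers of other cell types moved with the 5 genes. Over the 14 arrays in odor, 7 of 7 neutrophil, 6 of 6 monocyte and macrophage, 7 of 7 lymphocyte, 7 of 7 microvillar, 6 of 7 immature neuron, 5 of 5 globose basal and 6 of 8 sustentacular markers were higher in the fraction titled GFP+. With vehicle pool 3 kept in, these counts were 7, 5, 3, 7, 6, 4 and 3. In a count added after the values had been seen, 3 of the 7 lymphocyte, 5 of the 7 microvillar, 3 of the 5 globose basal and 7 of the 8 sustentacular markers had a mean over 16 arrays above the median of the negative controls, and 3, 5, 3 and 6 of those were called higher in odor over the 14 arrays (1, 5, 3 and 3 over 16). Chat, Cd3g and Ms4a1, of the microvillar and lymphocyte lists, lay below that median on all 16 arrays. The 1 lymphocyte marker above it that was called over 16 arrays was Ptprc (limma adjusted p = 0.0304). Ptprc is expressed by leukocytes in general, so its call does not single out lymphocytes. Of 5 Bowman gland markers 3 were higher in odor over the 14 arrays (Sox9, Ltf and Aqp5), and 2 over all 16 (Sox9 and Ltf). Ltf (6.35) also encodes a granule protein of neutrophils, so its call does not single out Bowman glands. Of 3 red blood cell markers 1 was higher over the 14 arrays (Slc4a1, 2.46), and 0 over all 16. Of 4 fibroblast markers 1 was higher over the 14 arrays (Dcn, 1.31, limma adjusted p = 0.0472), and 0 over all 16. The mean level of the neutrophil list ran from 11.52 to 14.56 in odor libraries titled GFP+, against 4.64 to 6.39 in those titled GFP-. The monocyte list ran from 9.43 to 11.35 titled GFP+, against 5.80 to 7.16 titled GFP-, and the immature neuron list from 11.06 to 11.48 titled GFP+, against 8.59 to 8.77 titled GFP-. The mature neuron list ran from 17.01 to 17.18 in odor libraries titled GFP+, against 17.15 to 17.34 in those titled GFP-, and 1 of its 10 genes was called, as lower. Of 5 horizontal basal, 4 glial and 5 endothelial markers, limma called 0 in odor, with 0, 2 and 1 at an unadjusted p under 0.05. Only 0, 2 and 0 of them had a mean over 16 arrays above the median of the negative controls. A missing call in these lists therefore does not show that the fractions were alike in these cell types. Sox10, alone of the glial markers, was called in vehicle over the 14 arrays (1.28, limma adjusted p = 0.00294). Its mean over 16 arrays, 5.46, was at the median of the negative controls, and it lay below that median on 7 arrays. No marker had a value of 0 in the table, and the part of these cell types, or of dissociation, in the levels of the 7 genes was not tested.

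The odor libraries titled GFP+ differed among themselves in these markers. Libraries 1 to 4 had neutrophil list means of 14.56, 14.09, 13.35 and 11.52 and monocyte list means of 11.35, 11.34, 10.42 and 9.43. Library 4 was the lowest in both, and it was also the lowest of its group for Fos (14.27), Fosb (12.48), Fosl2 (6.99), Jun (12.31) and Junb (9.53), whereas library 3 was the lowest for Jund and Atf3. Their immature neuron list means were 11.31, 11.06, 11.48 and 11.40. Library 2 was the lowest there. Library 4 was also the lowest for the lymphocyte (5.75), globose basal (6.56), sustentacular (8.79), Bowman gland (8.15), red blood cell (7.49) and fibroblast (5.06) lists. The same held for the dissociation-associated (8.89) and AP-1 target (5.97) lists. Its low place was thus not particular to the neutrophil and monocyte markers. For the microvillar list library 3 was the lowest (7.37), and for the mature neuron, horizontal basal, glial and endothelial lists library 4 was not the lowest. Vehicle pool 3 had neutrophil list means of 4.61 in its library titled GFP+ and 12.15 in that titled GFP-, the reverse of the other pools, as for the 5 genes.

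**Figure D5:**
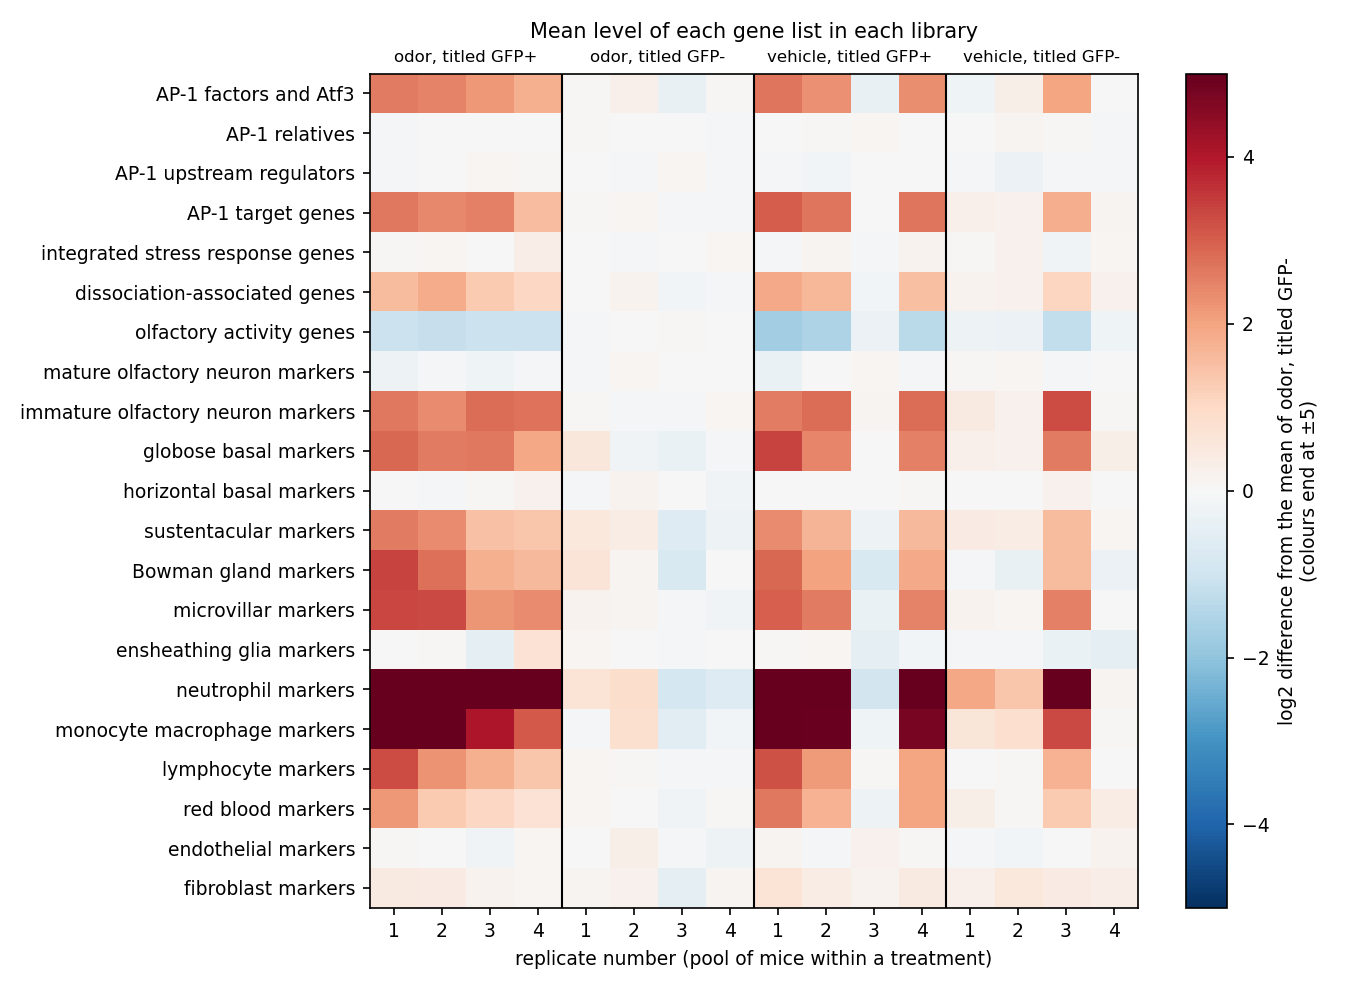
Mean level of each gene list (rows) in each of 16 libraries (columns, by group and replicate number), coloured by its log2 difference from the mean of the odor libraries titled GFP-, with colours ending at ±5. The list means of the 7 AP-1 genes, their targets, the dissociation-associated genes and the leukocyte, microvillar and immature neuron markers were high in the same libraries, with vehicle pool 3 reversed. Jund did not follow the mean of the 7.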

How the data were processed

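The authors deposited 1 table of log2 values per probe set, and the submitters' processing notes name Affymetrix Expression Console. The version, the summarization and the build were not stated in the sources used here. The table held 28846 probe sets, 6640 of them controls, and 19572 had 1 gene symbol in the platform annotation. Where a gene had more than 1 probe set (55 genes), that of highest mean over 16 arrays was kept. Library medians ran from 6.13 to 6.45. Read depth does not apply to arrays, and precision is limited by how many there are.

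Groups follow the titles. Linear models were fitted in R 4.3.3 by limma 3.58.1 with lmFit and moderated by eBayes (tests two-sided), with 4 group means in 1 model and no block, and, for the mean of both fractions, on pool means. The Benjamini-Hochberg adjustment ran over 19505 genes, with a threshold of 0.05. The script was tested on simulated data. Within a treatment, libraries of one number share their mice, which gives the pairing, while numbers shared between odor and vehicle pair nothing. The deviations of a pool's 2 libraries from their group means correlated across genes at 0.13 to 0.25 in odor and at -0.75 to -0.06 in vehicle (-0.02 to 0.29 without vehicle pool 3). The pool was a fixed block for fraction differences and a random block for odor against vehicle. Other alternatives were scaling, probe set choice, a filter on dim genes, moderation and leaving out libraries.

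Named genes were all 7, S100a5, up to 4 genes of each list by p in the odor fraction difference over 14 arrays, defining markers, and the 3 closest profiles of each gene with an SD of at least 0.5. A few further list members are named as examples after their values were seen. The 7 genes and the lists were chosen with earlier results of these data known. Of 164 listed genes besides the 7, 146 were measured, and the others are not analysed here.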

Additional observations from a re-analysis of the deposited data

Results flagged for a closer look

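Among 4 libraries of a group, a value was looked at again where its gap to the nearest other value made up more of the group's whole range than Dixon's 95% critical value for 4 samples. This met 9 of 28 combinations of gene and group, where chance flags about 1 in 20 groups, and 7 of the 9 came from vehicle pool 3. In the vehicle library 3 titled GFP+ the values were 10.54 for Fos, 7.02 for Fosb, 11.84 for Jun, 14.47 for Jund and 9.01 for Atf3, each the lowest of its group. In the vehicle library 3 titled GFP- they were 12.40 for Fosb and 6.74 for Fosl2, each the highest of its group. The other values were Fosl2 in odor library 4 titled GFP+, the lowest of its group at 6.99, and Junb in odor library 2 titled GFP-, the highest of its group at 8.39.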

How the results depend on the processing

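Over 16 arrays, limma called 5 of the 7 genes in the odor fraction difference, 0 with pool as a replicate block and 3 with trended and robust moderation. Leaving out single libraries gave 0 to 5, with 0 for each odor library except library 4 titled GFP+; all genes called then ran from 2 to 2184, against 1359. All genes called were 2 with the block, 2315 with only the groups compared, 896 with trended and robust moderation and 2570 without vehicle pool 3. In the vehicle fraction difference the count was 0, and 5 without vehicle pool 3, with or without the block or centring of arrays. All genes called were 0 over 16 arrays. Without vehicle pool 3 they were 2180, or 2314 with the block and 2312 with centring. Leaving out single libraries gave 0 to 5 there, with 5 only without vehicle library 3 titled GFP+, and all genes called ran from 0 to 1163. Over the 14 arrays, leaving out single libraries gave 5 or 6 in each treatment, with Jun as the added gene. All genes called then ran from 2043 to 2609 in odor and from 1644 to 2267 in vehicle. Scaling, probe set choice and the filter on dim genes left both counts as they were. The other 4 comparisons had 0 of the 7 called under every setting run, and no called value changed sign. The cause was not tested. The block changed no other call of the 7 genes, was not run on pool means, and fitting only the groups compared does not apply to pool means or to the difference of fraction differences. Values within the range of negative controls, as for Fosl2 and for most libraries titled GFP- of Fosb, Junb and Atf3, limit what a difference can show.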
